A study of Mus musculus with 4 samples.

Results

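Immediate early response genes are the genes that cells transcribe first after a stimulus, before any new protein has been made. The 9 members examined here are Fos, Fosb, Jun, Junb, Atf3, Egr1, Ier2, Dusp1 and Zfp36, taken by name from 20977 condensed genes, which are sets of exons joined by the authors' exon-exon junctions. All 9 were found, each as 1 condensed gene. Reads were counted in 4 libraries from frozen whole tissue of untreated C57BL/6 mice aged 9 to 10 weeks, 1 library per tissue and protocol. In the cDNA fragmented protocol, polyadenylated RNA of small intestine or colon was copied from an oligo-dT primer and fragmented after amplification. The other libraries, from the same tissues, were made with a whole transcriptome kit that fragments the RNA and keeps the strand, and are labelled as depleted of ribosomal RNA. The study's methods describe polyadenylated RNA for RNA fragmentation, so the RNA selection of these libraries is given here as labelled. Their reports give 36419942 and 37466674 total reads, far fewer than the study lists for its RNA fragmented libraries. The totals of the cDNA fragmented libraries equal those of the study. The rRNA-depleted libraries may therefore not be those that the methods describe.

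Fos and Fosb, together with Jun and Junb, encode subunits of the AP-1 transcription factor, in which a Fos protein pairs with a Jun protein. Atf3 and Egr1 encode further transcription factors of the same rapid response, and Ier2 encodes a small nuclear protein. Dusp1 encodes a phosphatase that removes the activating phosphates from MAP kinases, and Zfp36 encodes tristetraprolin, an RNA-binding protein that speeds the decay of mRNAs with AU-rich 3' ends. Transcripts of this class are made in bursts and are short-lived, and in the intestine they respond to growth factors, microbial products, stretch and handling of the tissue.

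Many transcripts of this class are known for AU-rich 3' ends, and 2 such sequences were sought in the 9 members. The heptamer TATTTAT, the core of the AU-rich element, was searched on the sense strand of the last 500 exonic bases, a search chosen after other results were known. It occurred 2 times in Fos, 1 time in Jun, 1 time in Atf3, 2 times in Dusp1 and 3 times in Zfp36, and it was not found in the tails of Fosb, Junb, Egr1 and Ier2. At least 1 copy was present in 11.5% of the tails of 19951 named condensed genes, at least 2 copies in 1.89% and at least 3 in 0.416%. The shorter ATTTA, which lies within the heptamer, was found in 7 members, with 4 copies in Fos, 3 each in Jun and Zfp36, 2 each in Junb, Egr1 and Dusp1 and 1 in Atf3, and it was not found in Fosb and Ier2. At least 1 copy was present in 48.3% of all tails and at least 2 in 20.45%. A window of 30 bases around 1 copy of the heptamer is printed for each of the 5 members that had one, from the mm9 assembly, 5' to 3' on the strand of the gene, with ATTTA in capitals.
Fos, chr12:86818053-86818082, plus strand: tgttttcaATTTATTTAttaagatggattc
Jun, chr4:94715769-94715798, minus strand: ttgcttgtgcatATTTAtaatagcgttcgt
Atf3, chr1:192994216-192994245, minus strand: aaaatattacttATTTAtcccagtattcct
Dusp1, chr17:26642814-26642843, minus strand: gtttttacctttATTTAtttttgtgtaggt
Zfp36, chr7:29161984-29162013, minus strand: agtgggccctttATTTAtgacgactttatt
In the Fos window, 2 overlapping ATTTA units share a base. A match describes the letters only, and no decay rate was measured.

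Promoters of 300 bases, taken from RefSeq on mm9, were available for 7 members, and 4 motifs were searched on both strands. A CArG box, the core of the serum response element, was found in the window of Zfp36 and in 1.63% of 32851 promoters. TGACGTCA, the full cAMP response element, was found in the window of Dusp1 (1.79% of promoters), and GCGTGGG, the Egr motif, in that of Junb (5.04% of promoters). TGACTCA, the AP-1 motif, was in none of the 7 windows and in 5.20% of all promoters. Fos, Fosb, Jun and Atf3 held none of the 4 motifs within these windows. Sequence farther upstream was not searched, so a motif there would not have been found. Only exact matches to these forms were counted, so variant sites within the windows would have been missed.

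Depth set the precision of every value. Uniquely placed reads numbered 22484041 and 24798934 in the cDNA fragmented libraries of small intestine and colon, and 2035386 and 3478387 in the rRNA-depleted ones. Levels are read numbers divided by the exonic length in kilobases and by the uniquely placed reads in units of 1000000 (RPKM), with exact 95% intervals. These cover the counting error of reads alone. Copies made by amplification are counted as separate reads, so the intervals are too narrow wherever reads are such copies. No replicate error can be given within a tissue and protocol, and no test was run. The 6 small intestine markers were at least 3-fold lower and the 6 colon markers at least 3-fold higher in colon in both pairs, as the labels have it. Other features also separated the libraries. The transcript Xist stood at 3.84 RPKM in the cDNA fragmented small intestine library and at 0.218 RPKM or less in the other 3, and 4 Y-linked genes summed to 0.182 RPKM there and to at least 41.8 RPKM in the others. The study describes both tissues as taken from the same individuals, and in the cDNA fragmented pair these levels go against that. Sex, animal and tissue therefore cannot be told apart in the cDNA fragmented pair, nor can sex and protocol in small intestine. In the rRNA-depleted small intestine library, 8 pancreatic acinar genes summed to 3149 RPKM, against 20.6 RPKM in the rRNA-depleted colon library and 326 and 657 RPKM in the cDNA fragmented libraries of small intestine and colon. The part of these features in the values of the members was not tested.

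**Figure D1:**
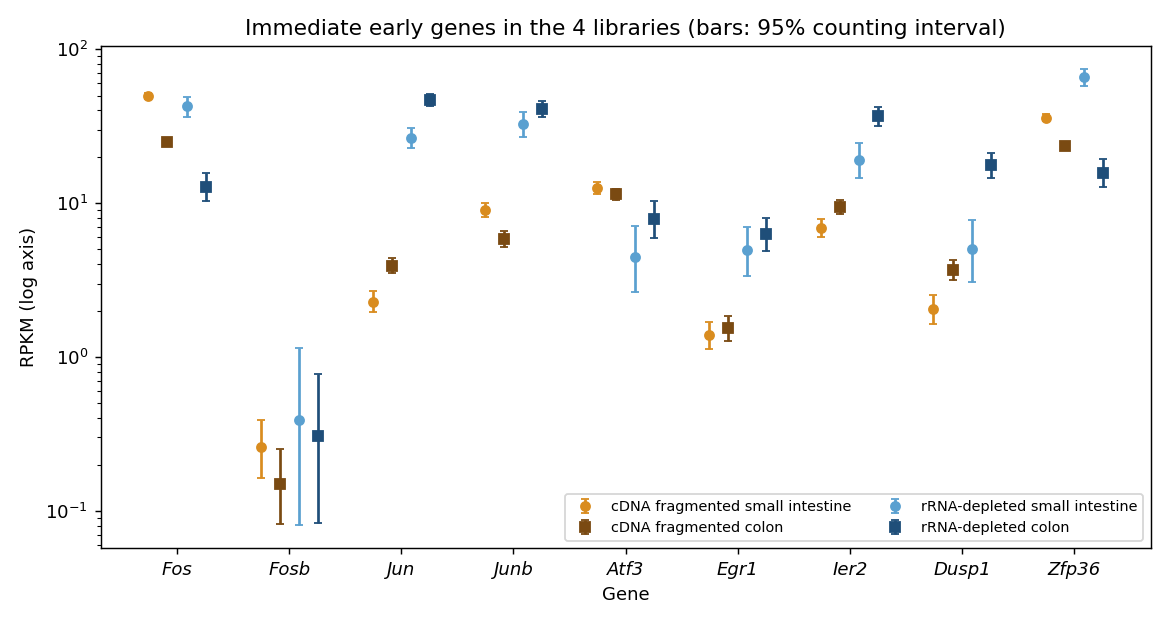
RPKM on a log axis of the 9 immediate early genes, with circles for small intestine and squares for colon and with bars for 95% counting intervals. Fos and Zfp36 lay lower in colon than in small intestine under both protocols, Jun and Dusp1 lay higher in colon under both, and Fosb stayed below 0.4 RPKM in every library.

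Fos was the highest member in the cDNA fragmented libraries, at 49.8 RPKM (47.8 to 51.9, 2344 reads) in small intestine and 24.9 RPKM (23.6 to 26.3, 1292 reads) in colon. In the rRNA-depleted libraries it stood at 42.5 RPKM (36.5 to 49.2, 181 reads) in small intestine and 12.8 RPKM (10.3 to 15.7, 93 reads) in colon. Small intestine was high and colon was low under each protocol, and the intervals of the tissues did not overlap. Among all condensed genes, these levels corresponded to percentiles of 92.5, 86.7, 92.8 and 75.3 in the order given.

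Fosb, the close relative of Fos, was nearly silent, with 0.259 RPKM from 22 reads and 0.150 RPKM from 14 reads in the cDNA fragmented libraries of small intestine and colon. The rRNA-depleted libraries held 3 and 4 reads of it, corresponding to 0.390 and 0.304 RPKM. All 4 intervals overlapped, so a difference in Fosb was not detectable at this depth.

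Jun stood at 2.29 RPKM (1.95 to 2.67, 164 reads) in small intestine and 3.92 RPKM (3.50 to 4.38, 310 reads) in colon in the cDNA fragmented libraries. In the rRNA-depleted libraries it stood at 26.5 RPKM (22.7 to 30.8, 172 reads) and 46.6 RPKM (42.7 to 50.8, 517 reads). Colon exceeded small intestine under each protocol, and each rRNA-depleted level exceeded both cDNA fragmented ones. The RPKM of Fos divided by that of its partner Jun was accordingly 21.8 in the cDNA fragmented small intestine library, 6.35 in colon, 1.60 in the rRNA-depleted small intestine library and 0.274 in colon.

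Junb gave 8.98 RPKM (8.09 to 9.95, 365 reads) in small intestine and 5.87 RPKM (5.18 to 6.62, 263 reads) in colon by cDNA fragmentation. By rRNA depletion it gave 32.6 RPKM (27.1 to 39.0, 120 reads) and 41.1 RPKM (36.2 to 46.4, 258 reads). The tissue order of Junb was thus opposite under the 2 protocols, and the intervals of the tissues overlapped in the rRNA-depleted pair. In the rRNA-depleted small intestine library, a single start point held 30 of its 120 reads, or 25%.

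Atf3 stood at 12.5 RPKM (11.5 to 13.6, 557 reads) in small intestine and 11.4 RPKM (10.5 to 12.4, 559 reads) in colon by cDNA fragmentation, levels whose intervals overlapped. In the rRNA-depleted libraries it stood at 4.47 RPKM (2.65 to 7.07, 18 reads) and 7.86 RPKM (5.90 to 10.2, 54 reads), and these intervals overlapped as well. Both rRNA-depleted levels lay below both cDNA fragmented levels, an arrangement that no other member showed.

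Egr1, which lies on chromosome 18 from 35020861 to 35024610, was low by cDNA fragmentation, at 1.39 RPKM (1.13 to 1.70, 96 reads) in small intestine and 1.54 RPKM (1.27 to 1.84, 117 reads) in colon. The rRNA-depleted libraries gave 4.96 RPKM (3.37 to 7.04, 31 reads) and 6.27 RPKM (4.86 to 7.96, 67 reads). The tissues overlapped under each protocol, and the protocols did not.

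Ier2 stood at 6.90 RPKM (6.04 to 7.83, 236 reads) in small intestine and 9.41 RPKM (8.45 to 10.4, 355 reads) in colon by cDNA fragmentation. The rRNA-depleted libraries gave 19.1 RPKM (14.5 to 24.6, 59 reads) and 36.8 RPKM (31.8 to 42.4, 195 reads). Colon was the higher tissue each time, without overlap.

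Dusp1 showed the same order, at 2.04 RPKM (1.64 to 2.51, 89 reads) in small intestine and 3.68 RPKM (3.15 to 4.26, 177 reads) in colon by cDNA fragmentation. By rRNA depletion it reached 5.06 RPKM (3.09 to 7.82, 20 reads) and 17.6 RPKM (14.6 to 21.1, 119 reads). The colon value stood above that of small intestine under each protocol, again without overlap.

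Zfp36 stood beside Fos, at 35.8 RPKM (34.0 to 37.7, 1422 reads) in small intestine and 23.6 RPKM (22.2 to 25.1, 1034 reads) in colon by cDNA fragmentation. In the rRNA-depleted small intestine library it was the highest member, at 65.7 RPKM (57.6 to 74.6, 236 reads), and in the rRNA-depleted colon library it lay among the middle members, at 15.8 RPKM (12.8 to 19.3, 97 reads). Small intestine was high and colon low each time, without overlap.

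The order of the members by RPKM differed between the libraries. In cDNA fragmented small intestine it was Fos, Zfp36, Atf3, Junb, Ier2, Jun, Dusp1, Egr1 and Fosb, with overlapping intervals between Jun and Dusp1 and between Dusp1 and Egr1. In cDNA fragmented colon Fos and Zfp36 overlapped at the top and Jun and Dusp1 overlapped lower down. In rRNA-depleted small intestine Zfp36 led and was followed by Fos, Junb, Jun and Ier2, with overlap between neighbours from Fos to Ier2. In rRNA-depleted colon Jun, Junb and Ier2 led with overlapping neighbours, and Fos came after Dusp1 and Zfp36, with which it overlapped. Over the 9 members, the summed RPKM was 120.0 and 84.5 in small intestine and colon by cDNA fragmentation, and 201 and 185 by rRNA depletion. Fos made up 41.5%, 29.5%, 21.1% and 6.90% of these sums, in the same order, and Jun 1.91%, 4.64%, 13.2% and 25.2%.

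The comparison of colon with small intestine asked whether the members differed between the tissues. In the cDNA fragmented pair, Fos was 2.0-fold lower in colon (interval 1.87 to 2.14), Zfp36 1.52-fold lower (1.40 to 1.65) and Junb 1.53-fold lower (1.30 to 1.80). Dusp1 was 1.80-fold higher in colon (1.39 to 2.35), Jun 1.71-fold higher (1.41 to 2.08) and Ier2 1.36-fold higher (1.15 to 1.61). The ratios of Atf3 (0.910, 0.808 to 1.02), Egr1 (1.11, 0.836 to 1.46) and Fosb (0.577, 0.273 to 1.18) had intervals that held 1. A member was called where it differed at least 3-fold after 0.1 RPKM had been added to both levels, with at least 20 reads in the pair. By this rule 0 of 9 members were called in either direction, where 9.77% of 14289 genes were called higher and 4.9% lower. The median log2 ratio of the members was -0.14, against 0.37 for all genes tested.

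In the rRNA-depleted pair, Zfp36 was 4.16-fold lower in colon (3.27 to 5.32) and Fos 3.33-fold lower (2.58 to 4.32), so 2 of 8 members with enough reads were called lower, where 6.23% of 12015 genes were. Dusp1 was 3.48-fold higher in colon (2.16 to 5.91), and this 1 call of 8 stood beside 13.9% of all genes. Below the 3-fold rule, Ier2 was 1.93-fold higher (1.44 to 2.63), Jun 1.76-fold (1.48 to 2.10), Atf3 1.76-fold (1.01 to 3.18) and Junb 1.26-fold (1.01 to 1.58). The ratio of Egr1 was 1.27 (0.815 to 2.003). Fosb had too few reads to be read. The median log2 ratio was 0.57 over the 8 members with enough reads and 0.33 with Fosb included, against 0.40 for all genes tested. The members ranged from -2.05 to 1.78. With median-of-ratios scaling, the median of all genes was 0.07 in both pairs, and Fos and Zfp36 lay below and Jun and Dusp1 above small intestine in both, but Dusp1 was no longer called in the rRNA-depleted pair (log2 ratio 1.44). By this scaling the log2 ratio of Ier2 fell from 0.44 to 0.12 in the cDNA fragmented pair. In the rRNA-depleted pair it fell from 0.95 to 0.61. With each start point counted 1 time, and scaled to all start points of the library, Fos was no longer called in the rRNA-depleted pair (log2 ratio -1.41). By that count the log2 ratios of Jun and Ier2 there were 0.31 and 0.41, against 0.81 and 0.95 by reads.

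**Figure D2:**
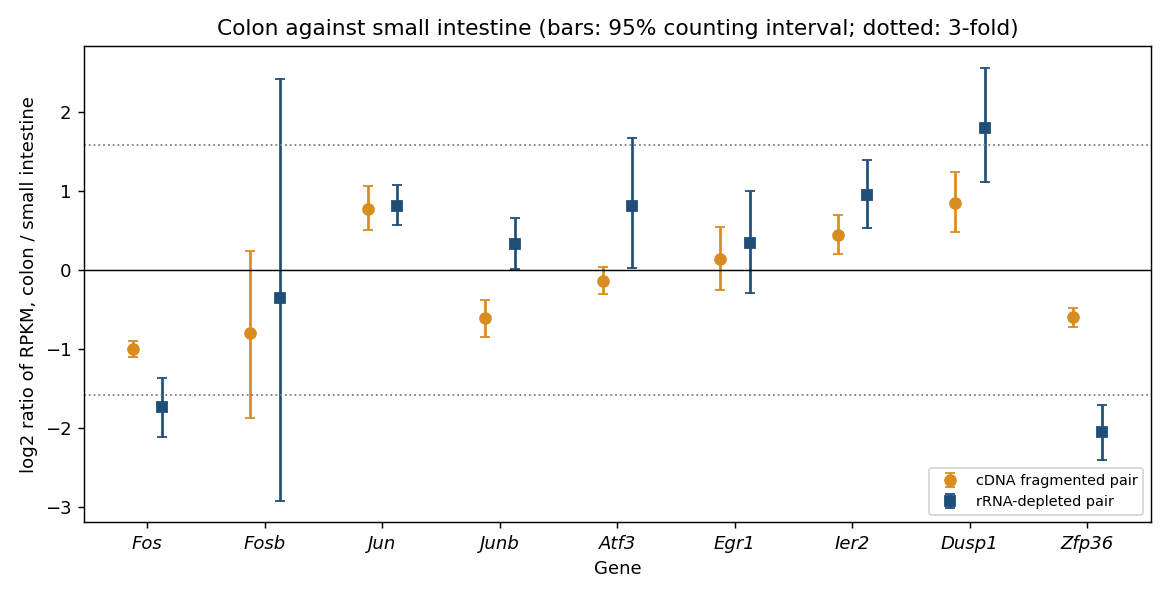
Log2 ratio of RPKM in colon to that in small intestine for each gene, with orange circles for the cDNA fragmented pair, blue squares for the rRNA-depleted pair, bars for 95% counting intervals and dotted lines at 3-fold. Fos and Zfp36 sit below 0 and Jun, Ier2 and Dusp1 above 0 in both pairs, whereas Junb lies below 0 in one pair and above it in the other.

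Both pairs placed 6 of the 8 members with enough reads on the same side, where 69.9% of 11810 genes with enough reads in both pairs kept their side. Junb and Atf3 lay on opposite sides, although with median-of-ratios scaling the log2 ratio of Junb in the rRNA-depleted pair was -0.0058, on the side of the cDNA fragmented pair. The interval of Atf3 held 1 in the cDNA fragmented pair. In the last 500 bases its rRNA-depleted ratio was 0.752 (0.354 to 1.63). The log2 ratio of Junb was 0.95 higher in the rRNA-depleted pair (interval of the difference 0.56 to 1.33), that of Atf3 0.95 higher (0.16 to 1.74), that of Dusp1 0.95 higher (0.17 to 1.73) and that of Ier2 0.50 higher (0.02 to 0.99). The lower level of Zfp36 in colon was larger in the rRNA-depleted pair by 1.45 on the log2 scale (1.09 to 1.81), and that of Fos by 0.73 (0.36 to 1.11). The median absolute difference between the pairs was 0.65 over all genes and 0.83 over the 8 members, with a 90th percentile of 1.66 over all genes. None of the 8 members differed by more than that percentile.

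Several cell type markers also differed between the tissues, in directions that varied by list. All 7 smooth muscle markers were higher in colon in both pairs, and their summed RPKM was 305 and 1276 in small intestine and colon by cDNA fragmentation and 248 and 2436 by rRNA depletion. The epithelial markers were mixed, with 3 of 5 lower in colon in the first pair and 4 of 5 in the second, and none of either list was at 0. Their sums of 9133, 3755, 3297 and 3467 RPKM, in the same order of libraries, rested in the first pair on Krt20, at 7525 and 2503 RPKM, whereas Krt8 was higher in colon in both pairs, at 375 and 579 RPKM and then 1127 and 2485 RPKM. Of the leukocyte markers, 5 of 6 were lower in colon in the first pair, with Ptprc at 18.2 and 4.36 RPKM and Cd3e at 6.94 and 0.646 RPKM, and 3 of 5 with enough reads in the second. Cd14 went the other way in both pairs, at 15.4 and 57.9 RPKM and then 3.28 and 20.7 RPKM, and the leukocyte sums were 71.2, 77.8, 40.8 and 46.1 RPKM. Of the fibroblast markers, 4 of 5 were higher in colon in the first pair and 5 of 5 in the second. Their sums of 209, 240, 57.4 and 201 RPKM included Dcn, the largest contributor, at 185, 204, 22.3 and 143 RPKM. Endothelial markers summed to 14.9, 16.2, 13.1 and 20.9 RPKM, and those of enteric neurons and glia to 13.1, 26.0, 5.80 and 18.7 RPKM, with S100b, a glial marker, at 0 in rRNA-depleted small intestine. In whole tissue, fewer cells of a type and less RNA per cell cannot be told apart, and the part of cell composition in the values of the members was not tested.

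The position of the reads along the genes showed where the Fos difference lay. Fos occupies 86814851 to 86818219 on the plus strand of chromosome 12 in mm9, with 4 exon blocks and 2093 exonic bases. In the cDNA fragmented pair, its exon block 1 held 101 small intestine reads and 103 colon reads, a colon to small intestine ratio of 0.925 (0.696 to 1.23), and exon block 2 held 129 and 124 reads, a ratio of 0.872 (0.676 to 1.12). Both intervals held 1. Exon block 3 held 43 and 25 reads, a ratio of 0.527 (0.309 to 0.883). Exon block 4, which ends the transcript, held 2071 and 1040 reads, a ratio of 0.455 (0.422 to 0.491). The last 500 exonic bases alone held 919 small intestine reads and 267 colon reads, a level 3.80-fold lower in colon (3.31 to 4.37), whereas the remaining exonic bases were 1.53-fold lower (1.41 to 1.66). The lower Fos level in the cDNA fragmented colon library was thus most marked toward the 3' end, although exon block 3 was lower as well.

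In the rRNA-depleted pair the difference was spread along the gene. There Fos was 3.11-fold lower in colon (1.80 to 5.49) within the last 500 bases and 3.39-fold lower (2.53 to 4.58) outside them. Exon block 2 gave a ratio of 0.274 (0.138 to 0.521) and exon block 4 of 0.338 (0.249 to 0.456). For exon block 3 it was 0.123 (0.0305 to 0.371), from 19 reads in small intestine and 4 in colon. Reads across the junction of exon blocks 1 and 2 were too few to compare, with 1, 4, 2 and 2 reads in the 4 libraries.

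Zfp36, with 2 exon blocks on chromosome 7 (29161803 to 29164247, minus strand), had a lower colon level on both sides of this limit. In the cDNA fragmented pair it was 1.84-fold lower in colon (1.58 to 2.14) in the last 500 bases and 1.40-fold lower (1.27 to 1.54) in the rest. The rRNA-depleted pair gave 5.02-fold (2.80 to 9.48) and 3.99-fold (3.06 to 5.24). The intervals within the rRNA-depleted pair overlapped, and those within the cDNA fragmented pair did not.

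Among the members higher in colon, Jun was 2.06-fold higher (1.53 to 2.81) in its last 500 bases and 1.48-fold higher (1.15 to 1.93) in the rest by cDNA fragmentation, and 2.07-fold (1.10 to 4.18) and 1.73-fold (1.44 to 2.09) by rRNA depletion. Dusp1, on the minus strand of chromosome 17 (26642537 to 26645417), was 1.69-fold higher (1.20 to 2.42) and 1.96-fold higher (1.31 to 2.98) by cDNA fragmentation. In the rRNA-depleted pair Dusp1 was 2.10-fold higher (1.09 to 4.37) in the last 500 bases and 5.56-fold higher (2.68 to 13.3) outside them, the latter from only 8 reads in small intestine. Ier2 had ratios of 1.13 (0.886 to 1.45) by cDNA fragmentation and 0.958 (0.428 to 2.24) by rRNA depletion in the last 500 bases, intervals that held 1, and of 1.60 (1.27 to 2.03) and 2.16 (1.56 to 3.03) outside them.

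Most Junb reads of the cDNA fragmented libraries lay at the 3' end. In the cDNA fragmented pair, the last 500 bases held 313 and 208 reads, a level 1.66-fold lower in colon (1.39 to 1.99), and the exonic bases before them held 52 and 55 reads, a ratio of 0.959 (0.644 to 1.43) that held 1. The intervals of these stretches overlapped. In the rRNA-depleted pair the ratio was 1.22 (0.721 to 2.14) in the last 500 bases and 1.27 (0.992 to 1.63) in the rest. Junb reads also matched less well than all reads of their library. Only 39.2% of them in cDNA fragmented small intestine had at most 1 color mismatch (Wilson interval 34.3% to 44.3%), against 59.8% of all reads of that library. In colon the share was 50.2% (44.2% to 56.2%), against 59.5%. By rRNA depletion the shares were 43.3% (34.8% to 52.3%) in small intestine and 56.6% (50.5% to 62.5%) in colon, against 64.5% and 67.4%. Shares of Ier2 were likewise lower, at 52.5%, 54.1%, 44.1% and 64.1% in the same libraries, in that order. Its last interval (57.2% to 70.5%) held the share of all reads. With at most 1 mismatch, the log2 tissue ratio of Junb in the cDNA fragmented pair was -0.24, against -0.61 with all reads.

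Atf3 also changed with the stretch that was read. By cDNA fragmentation its ratio was 0.915 (0.757 to 1.10) in the last 500 bases and 0.907 (0.776 to 1.06) in the rest. By rRNA depletion it was 0.752 (0.354 to 1.63) in the last 500 bases, from 14 reads in small intestine and 18 in colon, and 5.27 (1.89 to 20.4) in the rest, from 4 and 36 reads. The tissue order of Atf3 in the rRNA-depleted pair therefore rested on few reads outside the 3' end.

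**Figure D3:**
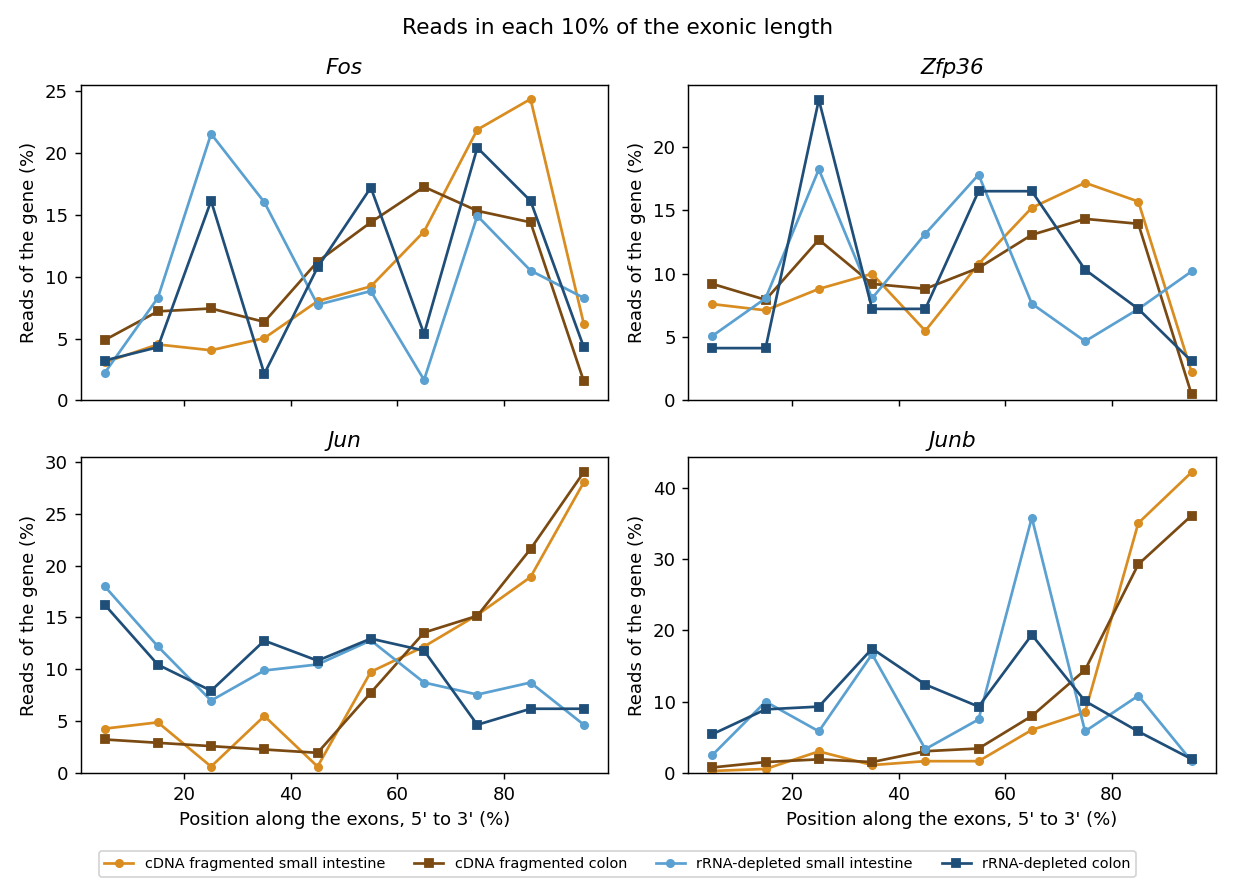
Percentage of a gene's reads that fall in each 10% of the exonic length, from the 5' end to the 3' end, for Fos, Zfp36, Jun and Junb, with 1 line per library. Reads of Jun and Junb pile up at the 3' end in both cDNA fragmented libraries (orange and brown) and not in the rRNA-depleted ones (blue), and Fos has a higher 3' share in the cDNA fragmented small intestine library than in that of colon.

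The cDNA fragmented libraries held more of the reads of most members near the 3' end. The last 500 bases took a median of 40.6% and 42.3% of a member's reads in small intestine and colon by cDNA fragmentation, against medians of 28.2% and 28.7% over all genes of 1500 to 4000 exonic bases. By rRNA depletion the members' medians were 19.4% and 17.8%, against 17.7% and 16.9%. This share depends on exonic length, which ran from 1522 bases (Ier2) to 3776 bases (Fosb) among the members and was not matched. The genes compared had at least 20 reads in the library, whereas the members' medians included Fosb without such a minimum. For Junb the shares were 85.8% (81.8% to 89.0%) and 79.1% (73.8% to 83.6%) by cDNA fragmentation and 18.3% (12.4% to 26.2%) and 17.8% (13.6% to 23.0%) by rRNA depletion. For Jun they were 39.6% and 47.7%, then 7.56% and 8.90%. For Fos the share was 39.2% (37.3% to 41.2%) in cDNA fragmented small intestine and 20.7% (18.6% to 23.0%) in colon, the lowest share of the members in that library, and by rRNA depletion it was 22.1% (16.7% to 28.7%) and 23.7% (16.2% to 33.2%). In colon Fos thus had the higher share by rRNA depletion, with overlapping intervals. In small intestine the same held for Dusp1, at 58.4% (48.1% to 68.1%) by cDNA fragmentation and 60% (38.7% to 78.1%) by rRNA depletion, while for Atf3 the shares were 40.2% (36.2% to 44.3%) and 77.8% (54.8% to 91.0%, of 18 reads), with intervals apart.

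Strand could be read only in the rRNA-depleted libraries. There, 99.6% of the members' 840 reads in small intestine and all 1404 reads in colon lay on the sense strand, which left 3 antisense reads and 0, the latter allowing a share of up to 0.214%. Of all reads on exon blocks, 98.4% were sense in each of these libraries. The cDNA fragmented libraries do not mark strand, and 51.5% and 53.0% of the members' reads were sense in them. None of the 9 members had an exact copy of any 35-base stretch of its exons among the exons of other genes outside the list. Copies in the same orientation among the members themselves, and copies with mismatches, were not searched.

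The comparison of the protocols within a tissue asked how far the level of a member depended on the library. Each protocol has 1 library a tissue, so protocol and library cannot be told apart, and in small intestine the levels of Xist (3.84 RPKM by cDNA fragmentation and 0.218 RPKM by rRNA depletion) and of the Y-linked genes (0.182 and 41.8 RPKM) differed with it. In small intestine, Jun was 11.6-fold higher by rRNA depletion (9.30 to 14.4), Junb 3.63-fold (2.93 to 4.47) and Egr1 3.57-fold (2.30 to 5.40), so 3 of 9 members were called higher, beside 24.2% of 13166 genes. No member was called lower, beside 15.1% of genes. Below the 3-fold rule, Ier2 was 2.76-fold higher (2.04 to 3.69), Dusp1 2.48-fold (1.45 to 4.07) and Zfp36 1.83-fold (1.59 to 2.11), and the ratio of Fosb was 1.51 (0.289 to 5.01). Fos had a ratio of 0.853 (0.729 to 0.993), and Atf3 was 2.80-fold lower (1.76 to 4.76).

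In colon, Jun was 11.9-fold higher by rRNA depletion (10.3 to 13.7), Junb 6.99-fold (5.87 to 8.34), Dusp1 4.79-fold (3.77 to 6.08), Egr1 4.08-fold (2.98 to 5.56) and Ier2 3.92-fold (3.27 to 4.68). These 5 of 8 members were called higher, beside 25.4% of 14088 genes, and 0 were called lower, beside 12.8%. Fos was 1.95-fold lower (1.58 to 2.43), Zfp36 1.495-fold lower (1.21 to 1.86) and Atf3 1.45-fold lower (1.10 to 1.96). Zfp36 thus stood above 1 in small intestine and below 1 in colon. The median log2 ratio of the members was 1.27 in small intestine and 1.96 in colon, against 0.33 and 0.50 for all genes. With median-of-ratios scaling, 1 member (Jun, log2 ratio 2.88) was called higher and 1 (Atf3, -2.07) lower in small intestine, where Junb and Egr1 stood at 1.24 and 1.18, and 3 (Jun, Junb and Dusp1) were called higher in colon, where Egr1 and Ier2 stood at 1.36 and 1.34. Over all genes, this scaling called 15.01% higher and 23.5% lower in small intestine and 14.5% and 20.2% in colon. With each start point counted 1 time, Jun and Atf3 were again the calls in small intestine, beside 14.2% of genes higher and 16.3% lower. This count was scaled to all start points of the library, 781641 by rRNA depletion and 7337402 by cDNA fragmentation there. The count and the scaling thus changed together, and their parts in the Atf3 call were not tested. Jun and Junb were called higher in colon by this count, beside 13.2% of genes. The protocol and tissue comparisons share libraries, so they are not independent of each other.

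**Figure D4:**
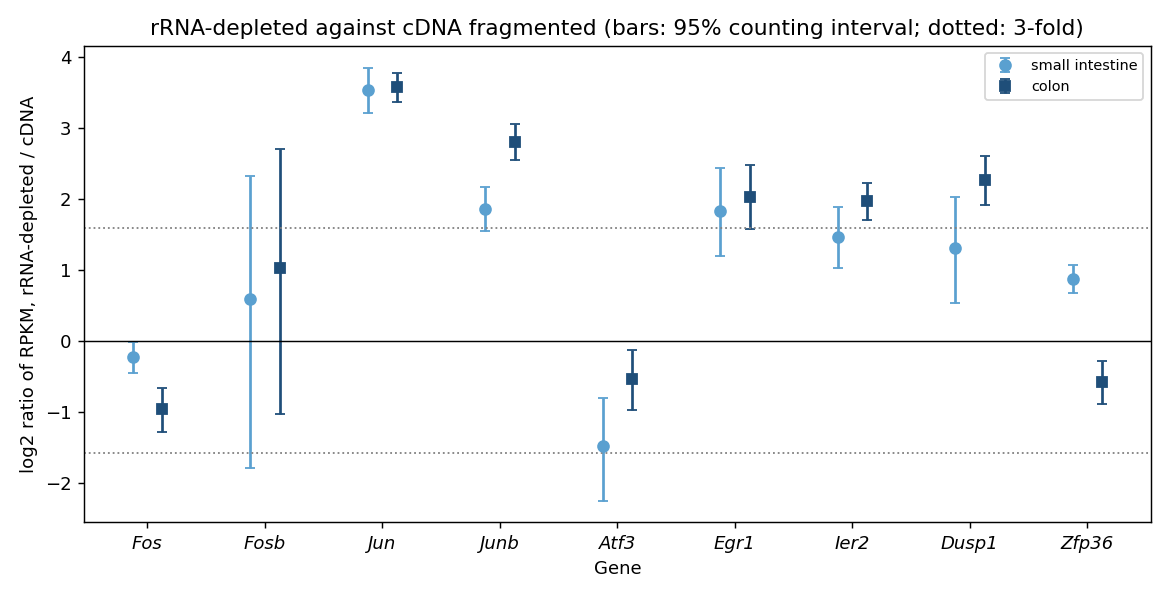
Log2 ratio of RPKM in the rRNA-depleted library to that in the cDNA fragmented library of the same tissue, with circles for small intestine, squares for colon, bars for 95% counting intervals and dotted lines at 3-fold. Jun lies highest, above 3.4 in both tissues, Junb, Egr1, Ier2 and Dusp1 lie above 1, and Fos and Atf3 lie below 0.

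For several members the protocol ratio was larger outside the 3' end than within it. Jun was 17.7-fold higher by rRNA depletion (13.7 to 23.0) outside its last 500 bases in small intestine and 20.7-fold (17.3 to 24.9) in colon, but 2.21-fold (1.12 to 4.05) and 2.22-fold (1.56 to 3.10) within them. Junb was 20.8-fold (14.7 to 29.7) and 27.5-fold higher (20.3 to 37.7) outside, and its ratios within were 0.776 (0.480 to 1.20) and 1.58 (1.12 to 2.18). Ier2 was 4.57-fold (3.19 to 6.45) and 6.16-fold higher (5.01 to 7.56) outside, and its ratios within were 1.01 (0.492 to 1.88) and 0.856 (0.494 to 1.40). Egr1 gave ratios of 4.85 (2.90 to 7.88) and 6.14 (4.30 to 8.74) outside and of 1.70 (0.588 to 4.04) and 0.792 (0.245 to 1.99) within. Zfp36 had the same order, with 2.19 outside and 1.11 within in small intestine and 0.766 and 0.407 in colon. The others were mixed. Dusp1 gave 2.39 outside and 2.55 within in small intestine and 6.77 and 3.16 in colon, Fos gave 1.09 and 0.481 and then 0.494 and 0.587, and Atf3 gave 0.133 and 0.690 and then 0.771 and 0.568.

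Jun (chromosome 4, 94715727 to 94718913), Junb (chromosome 8, 87500811 to 87502617) and Ier2 (chromosome 8, 87185230 to 87186751) lie on minus strands and consist of 1 exon block each. Over all genes, genes with 1 exon block had a median log2 protocol ratio of 0.80 in small intestine and 0.90 in colon, and the others of 0.32 and 0.49. The exons of Junb (62.6% GC) and Ier2 (60.9% GC) were the richest in GC among the members, where the median gene had 49.8%. Genes of at least 60% GC had median log2 protocol ratios of 2.49 and 2.0, those of 50% to under 60%, which include the other 7 members, of 0.64 and 0.47, and those under 50% of 0.02 and 0.42. Jun, with the highest protocol ratio, had 55.6% GC, and the members with ratios below 1 were Fos (51.8% GC) and Atf3 (52.2%) in both tissues and Zfp36 (53.9%) in colon. The grouping by GC and exon blocks was chosen after the ratios were known, and its part in them was not tested.

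The other genes of the response were taken from lists chosen with earlier results of these data known. Of 12 relatives of the AP-1 subunits, 11 had enough reads in the cDNA fragmented tissue pair, of which 0 were called higher in colon and 1 lower, and 8 in the rRNA-depleted pair, of which 0 were called. Over all genes, 9.77% were called higher and 4.9% lower in the first pair, and 13.9% and 6.23% in the second. The called gene was Batf, an AP-1 factor of lymphocytes, at 1.62 and 0.446 RPKM in small intestine and colon. The relatives with the most reads were Atf4, the factor of the amino acid stress response, Fosl2, Batf2 and Jund. Atf4 stood at 65.9 and 94.7 RPKM in small intestine and colon by cDNA fragmentation and at 95.4 and 121 RPKM by rRNA depletion. Fosl2, a Fos relative, had 13.2 and 10.9 RPKM by cDNA fragmentation and 63.4 and 76.7 RPKM by rRNA depletion. Jund, the third Jun gene, gave 3.04 and 4.54 RPKM and then 33.5 and 53.2 RPKM, a spread over the libraries like that of Jun.

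Of 12 zinc finger and orphan receptor early genes, 9 had enough reads in the cDNA fragmented pair, with 1 called higher in colon and 0 lower, and 8 in the rRNA-depleted pair, with 2 called higher and 0 lower, where 9.77% and 13.9% of all genes were called higher. Nr4a1, an orphan nuclear receptor, was called in both pairs, at 0.324 and 1.32 RPKM in small intestine and colon by cDNA fragmentation and at 0.596 and 7.90 RPKM by rRNA depletion. The other call was Klf2, at 0.812 and 3.17 RPKM in the rRNA-depleted pair. Klf6, Klf4 and Klf10 had the most reads. Klf4, a factor of differentiated epithelium, stood at 69.5 and 160 RPKM by cDNA fragmentation and at 105 and 165 RPKM by rRNA depletion. Klf6 stood at 86.5 and 96.6 RPKM, then at 90.1 and 104 RPKM. Egr2 had 34 reads over all libraries, Egr3 had 3 and Egr4 had 0, so Egr1 was the most highly read of its family.

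Of 27 feedback and other early genes, 25 had enough reads in the cDNA fragmented pair, with 1 called higher in colon and 1 lower. In the rRNA-depleted pair, 3 of 23 were called higher and 2 lower. The shares over all genes were 9.77% higher and 4.9% lower in the first pair and 13.9% and 6.23% in the second. Socs3, the inhibitor of cytokine signalling through JAK kinases, was called lower in both pairs, at 3.50 and 0.978 RPKM in small intestine and colon and then 8.84 and 0.634 RPKM. Ctgf, a matrix protein gene, was called higher in both, at 0.611 and 2.67 RPKM and then 3.07 and 22.6 RPKM. Sgk1, a kinase gene with the most reads in the list, stood at 86.5 and 53.9 RPKM by cDNA fragmentation and at 91.2 and 24.4 RPKM by rRNA depletion, where it was the other gene called lower. Dusp6, a phosphatase gene of the family of Dusp1, gave 26.3 and 16.3 RPKM and then 82.1 and 46.4 RPKM, with the lower value in colon where Dusp1 had the higher. Ptgs2 and Rhob were the remaining genes called higher in the rRNA-depleted pair, at 0.948 and 3.61 RPKM and at 37.1 and 119 RPKM. In the cDNA fragmented pair Ptgs2 lay the other way, at 1.51 and 0.837 RPKM. Genes named for their calls were chosen after their values were seen.

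Of 15 upstream kinases and serum response factors, 14 and 15 had enough reads in the cDNA fragmented and rRNA-depleted pairs, with 1 called higher in colon in each and 0 lower, beside 9.77% and 13.9% of all genes called higher. These were Mkl1, a coactivator of the serum response factor, at 1.42 and 7.98 RPKM by cDNA fragmentation, and Elk1, at 0.833 and 4.39 RPKM by rRNA depletion. Mapk3 and Map2k1, successive kinases of the ERK pathway, had the most reads. Mapk3 stood at 36.9 and 88.1 RPKM, then at 69.6 and 203 RPKM, and Map2k1 at 26.3 and 69.5 RPKM, then at 58.9 and 122 RPKM. Both were higher in colon each time, below the 3-fold rule.

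Of 11 heat shock genes, a class that also responds to handling, 11 and 9 had enough reads in the tissue pairs, and Hspb1 alone was called, higher in colon in both, beside 9.77% and 13.9% of all genes. Hspb1, a small heat shock protein gene that smooth muscle also expresses, stood at 2.96 and 38.4 RPKM and then at 2.72 and 51.6 RPKM. Hspa8, the constitutive Hsp70 gene, had the most reads, at 1592 and 1503 RPKM and then 243 and 592 RPKM. The inducible Hspa1a and Hspa1b, near-identical copies between which reads are hard to place, stayed below 1 RPKM in every library.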

How the data were processed

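The authors' deposited match files list single reads by position, strand and number of color mismatches, without normalized values. They had matched 35 colors per read to RefSeq exons of mm9 and to exon-exon junctions, allowing 3 mismatches, and had removed reads with several placements, so reads outside exons are not represented. Start points counted here equal those of the deposited reports. Reads were given to the exon holding their start, with 3 bases of tolerance, on condensed genes named from GENCODE M1, and RPKM was calculated in Python 3.11.15 (pandas 2.3.3, scipy 1.17.1). Ratios carry exact (Clopper-Pearson) and shares Wilson intervals at the 95% level, and differences of log2 ratios normal intervals. Calls needed 3-fold on log2(RPKM + 0.1) and 20 reads in the pair. The rule was tested on simulated data of 20977 genes, with Poisson counting error only, of which 200 with at least 50 expected reads in the pair were changed 8-fold. It recovered 199 of them in the simulated cDNA fragmented pair, with 0 unchanged genes called, and 200 in the rRNA-depleted pair, with 23 unchanged genes called. Changes near 3-fold were not simulated, so recovery at that size is not known. All 9 members are named, list genes by read number or by call. Members and lists (pancreatic and sex-linked ones included) were chosen with earlier results of these data known. Alternatives were other scalings, mismatches, start points, strands, gene stretches, pseudocounts, depths, thresholds and read minima. The stretch outside the last 500 bases was added after the data had been seen.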

Additional observations from a re-analysis of the deposited data

Results flagged for a closer look

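Junb and Atf3 lay on opposite sides of 1 in the 2 tissue comparisons. Junb was lower in colon by cDNA fragmentation and higher by rRNA depletion, so its log2 ratio differed by 0.95 between the pairs. With median-of-ratios scaling the rRNA-depleted ratio was -0.0058, so that both pairs lay on the same side. With at most 1 color mismatch, the log2 ratio of Junb was -0.24 in the cDNA fragmented pair, against -0.61 with all reads. The rRNA-depleted values were 0.65 and 0.33, in the same order. Atf3 differed by 0.95 in the same sense as Junb, and so did Dusp1, which lay above 1 in both. The ratio of Atf3 in the cDNA fragmented pair had an interval that held 1 (0.808 to 1.02). Its rRNA-depleted ratio in the last 500 bases was 0.752 (0.354 to 1.63), on the side of the cDNA fragmented pair. With 1 library per tissue and protocol the difference was not tested, and the intervals given with these values cover counting error only. Outside the last 500 bases the Junb ratio of the cDNA fragmented pair was 0.959, with an interval that held 1, from 52 and 55 reads.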

How the results depend on the processing

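The labels number no replicates, so no samples were paired by number. A fit of tissue with protocol as a term would leave 1 residual degree of freedom and was not run. Of 324 member ratios computed under 9 alternatives, 7 changed sign although their interval had left out 1. With median-of-ratios scaling, the log2 tissue ratio of Junb in the rRNA-depleted pair was -0.0058. When reads and scaling were both restricted to the last 500 bases of all genes, those of Ier2 and Atf3 in that pair were -0.23 and -0.58, the protocol ratios of Fos and Atf3 were 0.0421 and 0.56 in small intestine, and they were 0.20 and 0.15 in colon. With the same bases scaled to all reads of the library, as in the report, the linear ratios were 0.958 for Ier2 and 0.752 for Atf3 between tissues, and 0.481 and 0.690 for Fos and Atf3 between protocols in small intestine and 0.587 and 0.568 in colon, so the sign changes between protocols came with the scaling. Fos and Zfp36 lay below and Jun and Dusp1 above 0 in both tissue comparisons under all 9 alternatives. In the rRNA-depleted pair, however, Jun fell to 0.31 with start points in place of reads, from 0.81.

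Median-of-ratios scaling gave median log2 ratios over all 9 members of -0.46 (cDNA fragmented tissue pair), 0.0017 (rRNA-depleted pair), 0.68 (protocols in small intestine) and 1.34 (protocols in colon). It gave 0 members called higher in the rRNA-depleted tissue pair, 1 higher and 1 lower between protocols in small intestine, and 3 higher in colon. Over all genes it gave 6.90% higher and 6.56% lower in the cDNA fragmented tissue pair, 9.56% and 8.81% in the rRNA-depleted pair, 15.01% and 23.5% between protocols in small intestine and 14.5% and 20.2% in colon, and moved the protocol medians of all genes to -0.26 and -0.10. Start points in place of reads gave 1 member called lower in the rRNA-depleted tissue pair (4.68% of all genes), 1 higher and 1 lower between protocols in small intestine (14.2% and 16.3%), 2 higher in colon (13.2%), and protocol medians of 0.60 and 0.73. The last 500 bases, scaled to their own reads, gave 1 member called lower in the cDNA fragmented tissue pair (Fos, log2 ratio -1.96, beside 6.54% of genes), 0 higher (12.8%) and a median of -0.23 in the rRNA-depleted pair, and 3 higher (26.2%) with a median of 0.74 between protocols in colon. The bases outside them, likewise scaled, gave 2 members higher in the rRNA-depleted tissue pair (15.5%) and 1 lower between protocols in small intestine (19.7%). A 2-fold threshold gave 5 higher (35.6%) and 1 lower (23.4%) in the latter. The median of the protocol ratios in colon was 1.52 with 1 RPKM added and 1.23 after thinning to 2035386 reads. Thinning also moved the median of the cDNA fragmented tissue pair to 0.65. That value was the thinned ratio of Fosb, which had only 22 and 14 reads before thinning. The cause of these shifts was not tested. The other alternatives, which were scaling without the 10 genes with most reads, at most 1 mismatch, sense reads and no read minimum, kept each count of calls within 1.5 times. Scaling without those 10 genes gave 4 members called higher between protocols in small intestine, where Ier2 passed 3-fold.

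Precision was limited by the rRNA-depleted libraries, where Fosb had 3 and 4 reads, Atf3 had 18 reads and Dusp1 20 reads in small intestine. Replicate error within a tissue and protocol cannot be had from these libraries. Xist and Y-linked levels differ with tissue in the cDNA fragmented pair and with protocol in small intestine.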

Other observations

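The genes whose pattern over the 4 libraries was nearest to the median pattern of the members were sought among 8185 genes with at least 20 reads in each library, after the mean of log2(RPKM + 0.1) over the libraries had been subtracted from each. The 5 nearest were Rab3ip, at a Euclidean distance of 0.04, Myst2 (0.06), Setd3 (0.08), Parp12 (0.09) and Git2 (0.10), against a median distance of 1.58. The members set the median pattern, so their own distances only describe how they spread around it. These were 0.35 for Ier2, 0.38 for Egr1, 0.98 for Dusp1, 1.02 for Junb, 2.01 for Jun, 2.38 for Zfp36 and 2.81 for Fos. Fosb (1.26) and Atf3 (2.56) had under 20 reads in at least 1 library and would not have entered the genes compared.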
